A study of Mus musculus with 20 samples.

Results

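The 200 most abundant annotated long intergenic non-coding RNA (lincRNA) transcripts of the mouse cerebral cortex were described in a tauopathy model and its wild-type controls. The members were the transcripts with an Ensembl identifier and the gene type lincRNA that the authors' table of mRNAs did not hold, ranked by their mean FPKM (fragments per kilobase of transcript and unit of sequencing depth) over 20 libraries. Of 751 such transcripts, 36 belonged to 9 of the 14 well-known or separately treated symbols that the rule leaves out, and the 200 highest of the remaining 715 were kept. They came from 172 genes, in a table of 54271 transcripts. The members were chosen by their mean level over all 20 libraries, so their levels are given as a description. Tests were made of the differences between the groups and, without having been planned, of correlations with genes opposite or beside the members.

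PS19 mice carry the transgene Tg(Prnp-MAPT*P301S)PS19Vle, in which the mouse prion protein promoter drives human tau with the P301S mutation, on an (C57BL/6 x C3H)F1 background. Total RNA of frozen cerebral cortex was sequenced in 4 groups of 5 libraries. WT03M and WT10M are wild-type mice of 3 and 10 months, and TG03M and TG10M are PS19 mice of the same ages. All 4 groups share the strain and tissue. The labels do not say that the 5 libraries of a group came from separate animals, so each p-value measures the spread between these libraries, which may be technical. The promoter is active well beyond the cortex and beyond neurons, and the labels state neither sex nor which cortical area was taken.

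LincRNAs are transcribed by RNA polymerase II from loci between protein-coding genes, are capped and mostly spliced and polyadenylated, and encode no known protein. Some act as RNAs, such as Cyrano, which pairs with the microRNA miR-7 and promotes its decay. Others are host genes, whose introns or exons are processed into microRNAs or small nucleolar RNAs (snoRNAs, guides for the chemical modification of ribosomal RNA), or start back to back with a protein-coding gene at a shared promoter. Many mouse lincRNAs are known chiefly by a number, and their annotation can overlap a neighbouring gene on the opposite strand.

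The sequences below were chosen because they define what several of the leading members contain. For the host genes, the mature microRNAs are shown 5′ to 3′ with the seed, bases 2 to 8, in capitals (RefSeq, GRCm38.p6). C130071C03Rik overlaps Mir9-2 and AI854517 overlaps Mir9-3, and both loci give the same pair of mature sequences. E130102H24Rik overlaps Mir101a. The miR-7a-5p sequence is shown for its match in 1700020I14Rik, the mouse Cyrano.
mmu-miR-9-5p: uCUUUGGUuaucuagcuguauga
mmu-miR-9-3p: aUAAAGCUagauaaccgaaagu
mmu-miR-101a-3p: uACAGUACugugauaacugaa
mmu-miR-7a-5p: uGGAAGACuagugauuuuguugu
1700020I14Rik, bases 2935 to 2959 of the transcript: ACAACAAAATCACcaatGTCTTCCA
The capitals of the last line mark the 21 of 25 bases that are complementary to miR-7a-5p, on both sides of a short unpaired stretch. A match of letters is a description of the transcript and not a measurement of binding.

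The transcripts of the other sequences were taken from GENCODE M21 (GRCm38). Gm26825 is annotated opposite the pseudogene Gm15459. On the strand opposite to the transcript, its sequence was 99.15% identical to the mRNA of Hspa8, the constitutive heat shock cognate chaperone, over 1884 bases. The 60-base stretch below was picked because it holds differences, so it is less alike than the 1884 bases as a whole. In it 56 bases are the same, and capitals mark the differences, which are T3G, A4T, T5C and G33A (Hspa8 base, position from 1 at the 5′ end, Gm26825 base).
Hspa8: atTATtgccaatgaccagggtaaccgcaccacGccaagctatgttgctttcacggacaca
Gm26825, opposite strand: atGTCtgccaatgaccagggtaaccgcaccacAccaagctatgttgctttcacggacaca
Yam1 (chr17:39847113-39848035, minus strand, 1 exon) and Gm26917 (chr17:39845074-39846245, plus strand, 2 exons) lie side by side in a locus annotated with ribosomal RNA-like genes. They were the second and the third member by level, and the first 80 bases of each are shown because these 2 members set the differences between libraries described further on.
Yam1: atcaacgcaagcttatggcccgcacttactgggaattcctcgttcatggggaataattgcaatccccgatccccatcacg
Gm26917: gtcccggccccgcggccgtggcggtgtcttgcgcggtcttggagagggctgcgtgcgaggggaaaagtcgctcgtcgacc

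Prnp, whose promoter drives the transgene, was listed at 694.6 to 811.9 FPKM in TG03M and 735.7 to 840.8 in TG10M, against 426.1 to 457.7 in WT03M and 411.9 to 528.3 in WT10M, with no overlap. Slc17a7, the vesicular glutamate transporter of cortical excitatory neurons, was listed at 257.4 to 354.3 in all libraries. Ttr, a marker of choroid plexus, ranged from 4.793 to 996.4, and 4 striatal markers also varied. Their medians were lower in TG10M than in WT10M: Rgs9 was at 25.82 to 35.97 in WT10M and 8.36 to 24.28 in TG10M, without overlap, Adora2a at 13.74 to 22.06 and 5.418 to 14.52, Ppp1r1b at 63.54 to 112.1 and 40.06 to 78.03, and Drd1 at 19.35 to 23.51 and 7.678 to 21.02. In WT03M and TG03M Rgs9 was at 8.584 to 30.32 and 8.573 to 29.92. The part of striatal tissue in the 10-month differences was not tested. Estimated depth was 22.59 to 30.1 M fragments. A set of 7 libraries (TG03M replicates 2 to 5, WT10M replicate 5, TG10M replicates 1 and 5) listed Hsp90aa1, a cytosolic chaperone, at 13.85 to 20.47 FPKM against 532.1 to 686.7 in the 13 others. Of these 7, WT10M replicate 5 and TG10M replicates 1 and 5 also stood apart in markers of neurons: Camk2a, a synaptic kinase, was at 92.8 to 106 FPKM there and at 149 to 249 in the other 17. Results that turn on these sets are given with and without them.

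Among the members the levels fell steeply from a few transcripts. A mean of at least 100 FPKM was found for 5 members and of at least 10 for 37. The median was 4.2 and the lowest 1.845. The threshold separated close neighbours: 2700033N17Rik (1.859 FPKM) and Gm26840 (1.845) were the last inside, and Gm26617 (1.837) and Gm26658 (1.785) the first outside. The 515 annotated lincRNA transcripts below them had a median of 0.4456 FPKM, and the members held 90.84% to 96.64% of the summed FPKM of the 715. FPKM is per length, so levels can be compared between members, although it gives no count of molecules. This does not hold for members whose reads cannot be told apart from those of another gene, among them Gm26723 and Yam1.

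**Figure D1:**
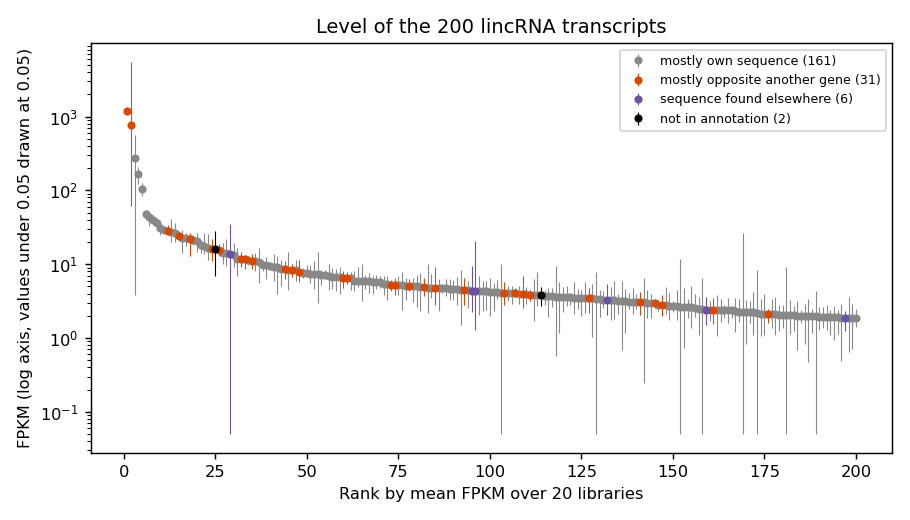
Mean FPKM over 20 libraries (log axis) of each of the 200 members by rank, with bars from the lowest to the highest library, coloured by what the transcript's sequence holds. The levels fall from 1183 to 1.845 FPKM, and the widest bars among the leading members belong to Yam1 and Gm26917.

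The 10 highest members were a mixed set. Gm26723 had a mean of 1183 FPKM, with 1096 to 1194 in WT03M, 1170 to 1299 in TG03M, 1081 to 1357 in WT10M and 1128 to 1340 in TG10M. Most of its length lies opposite exons of a protein-coding gene, so its reads cannot be told apart from those of that gene. The mean of Yam1 was 780 and that of Gm26917 276. They were followed by 6330403K07Rik at 168, a gene that GENCODE M21 lists as protein-coding, and by the main 1700020I14Rik transcript (Cyrano) at 103. Next came Gm17275 (47.9 FPKM), the snoRNA host Snhg6 (43.4), A830039N20Rik (40.2, placed within Kcnma1, a potassium channel gene, in GENCODE M21), 9530082P21Rik (36.4) and the snoRNA host Snhg12 (31.3). Together, Yam1, Gm26917 and Gm26723 held 44.46% to 82.17% of the members' summed FPKM, depending on the library.

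Apart from Yam1 and Gm26917 the summed level of the members was nearly the same in every library. With them it ran from 3188.1 to 3315.0 FPKM in WT03M, 2858.4 to 3697.1 in TG03M, 3139.4 to 4038.5 in WT10M and 3732.8 to 8720.4 in TG10M. Without these 2 it ran from 2695.2 to 2903.4, 2691.4 to 2898.3, 2742.3 to 2968.3 and 2682.2 to 2931.1, and the 4 groups overlapped. The steadiest members at higher levels were C330006A16Rik, at 27.28 to 31.40 FPKM over the 20 libraries, 9530082P21Rik at 33.54 to 42.04 and A830039N20Rik at 34.06 to 46.44. The standard deviation (SD) within groups of log2(FPKM + 0.1) had a median of 0.2646 over the members, and 14 members exceeded 1.

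Short members were among those with the widest spread. All 5 members of under 300 bases (Gm34302, RP24-333I1.7, Gm28563, Gm13322 and Gm14532, 211 to 279 bases) were listed at 0 in between 4 and 18 libraries, and among the longer members Gm26825 alone was ever listed at 0. Gm28563 was listed at 18.7 FPKM in TG03M replicate 4, at 26.4 in WT10M replicate 3 and at 0 in the other 18 libraries. A value of 0 in such a table can be a failed estimate, so no mean is given for these members. In all, 191 members reached 0.1 FPKM in every library.

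The annotation placed most members apart from other genes but a sizeable minority opposite one. GENCODE M21 held 198 of the 200, 52 of them as another version of the transcript, and listed 169 as lincRNA, 11 as antisense and 9 as protein-coding, among them Tunar and Kantr. The members had a median exonic length of 1379.5 bases and a median of 2 exons, against 934 bases and 3 exons for the others below the threshold. By sequence, 161 members were mostly their own, 31 lay mostly opposite another gene's exons, 6 had at least 50% of their 31-base words in another gene, and 2 could not be placed. Exons opposite a protein-coding gene made up at least 50% of the length in 23 of 198 members (11.62%) and in 15 of 507 others (2.959%). Starts within 1000 bases of a protein-coding start on the opposite strand were found for 18.69% of the members and 22.09% of the others. Hairpins of microRNAs lay in 6.566% and 2.959%.

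Most members opposite a protein-coding gene varied together with that gene from library to library. The strand setting of the authors' counting is not given in the sources used here, so reads of such a member and of its partner cannot be told apart. Over the 22 such pairs with a measured partner, Pearson's r of the log2 levels over 20 libraries had a median of 0.6789 and ran from −0.3722 to 0.8988. In 15 pairs the permutation p (100000 resamples, two-sided, Benjamini-Hochberg adjusted over 23 pairs) was below 0.05, and r was positive in all 15. The 23 pairs were the 22 and Yam1 with Lars2. Resampling ignored the groups and the library sets, so this p and the permutation p-values below also reflect differences between those. The median r was 0.5219 within the 13 libraries with high Hsp90aa1 and 0.439 without the 3 libraries set apart. The level of the member ranged from 0.07296 to 5.747 times that of its partner, with a median of 1.004. Between 109 members of their own sequence and the nearest protein-coding gene, r had a median of 0.02937.

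Gm26778 (chr14:102978220-102982528, plus strand, 2 exons) illustrates this class. It was at 25.7, 26.4, 27.9, 25.7 and 24.6 FPKM in WT03M, at 24.4, 23.6, 27.6, 26.9 and 21.7 in TG03M, at 21.1, 26, 24.7, 22.1 and 23 in WT10M and at 22.5, 22.1, 24.6, 23.2 and 23.8 in TG10M, so the groups overlapped. Its partner Kctd12, an auxiliary subunit of GABA-B receptors, had a mean of 8.147 FPKM against the 24.38 of Gm26778. Their r was 0.8988 and Spearman's rho 0.9068 (permutation adjusted p = 5.7e-05 and 7.7e-05), and r was 0.87 without the 2 libraries farthest from the median. Within the 13 libraries r was 0.9318. Kctd12 differed between the genotypes by 0.01 at 10 months on the log2 scale (adjusted p = 0.978, limma).

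Other pairs varied in how they tracked. Gm26883 and Tshz2, a zinc finger transcription factor gene, had r = 0.7744 and rho = 0.815 (permutation adjusted p = 0.0002 and 0.00017), and r = 0.8639 within the 13. Gm26899 (21.67 FPKM) and Zfp106 (42.9 FPKM), an RNA-binding zinc finger gene, had r = 0.8954, which was 0.4593 without the 3 libraries set apart. Gm26718 and Pgam5, a mitochondrial phosphatase gene, had r = 0.7106 with all libraries. It was 0.04432 without those 3 and 0.5676 within the 13, so that relation depended on which libraries were kept. Gm26702 (11.64 FPKM) and Ajm1 (2.025 FPKM), an apical junction gene, had r = 0.2229 (permutation adjusted p = 0.38). 9430098F02Rik (5.126 FPKM) and Ppp2ca (70.26 FPKM), the catalytic subunit of protein phosphatase 2A, had r = −0.3722 (permutation adjusted p = 0.13).

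**Figure D2:**
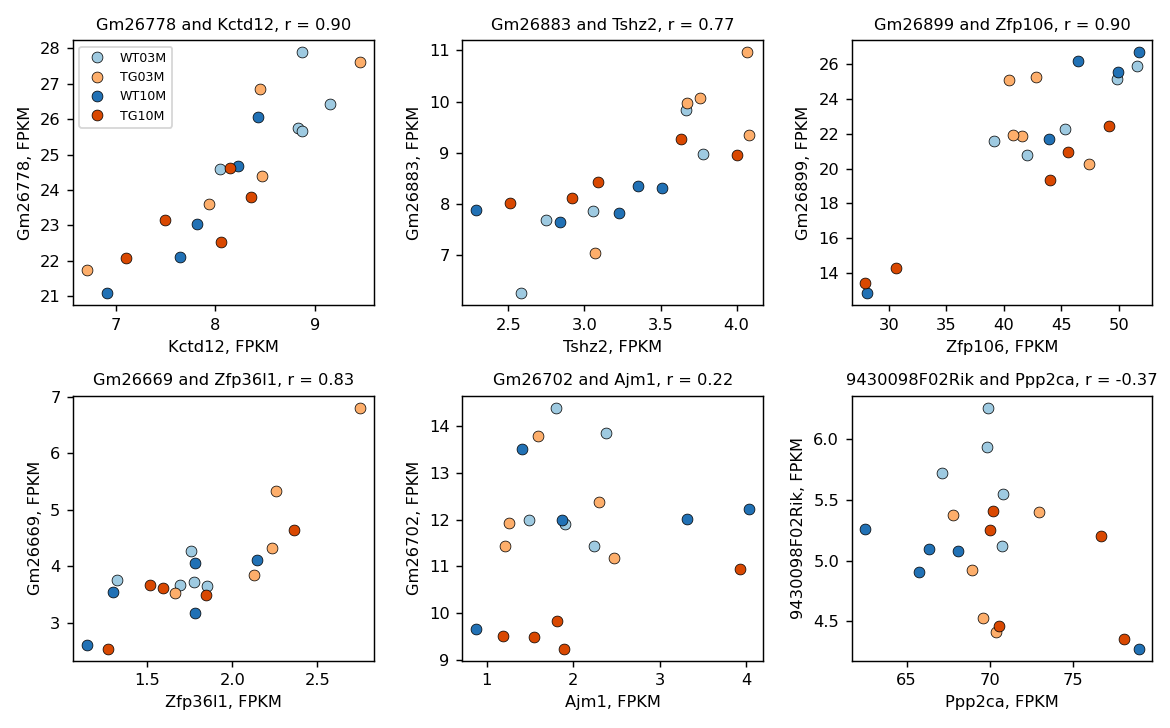
FPKM of 6 members (vertical axes) against the gene on the opposite strand (horizontal axes), 1 point per library, coloured by group. Gm26778 with Kctd12 and Gm26883 with Tshz2 rise together (r = 0.8988 and 0.7744), whereas Gm26702 with Ajm1 and 9430098F02Rik with Ppp2ca do not (r = 0.2229 and −0.3722).

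Members that start within 1000 bases of a protein-coding start on the opposite strand showed no common sign. Whether member and gene run away from each other was not checked. Of 37 such members, 33 had a measured partner. Their r had a median of −0.02792 and was below 0 in 17 pairs. The partner was the more abundant RNA in 27 pairs, with a median ratio of 4.447. The adjustment over 33 was passed by 3 pairs, and r was negative in each. Of these, 2 are named here, after their values were seen. Cep83os (9.652 FPKM) and Cep83 (13.79 FPKM), a centriole gene 78 bases away, had r = −0.7457 and rho = −0.6872 (permutation adjusted p = 0.003 and 0.018), and r = −0.5889 within the 13 libraries. Gm17586 (4.276 FPKM) and Mafg (20.65 FPKM), a small Maf transcription factor gene 168 bases away, had r = −0.6833 and rho = −0.7233 (permutation adjusted p = 0.012 and 0.018), and r = −0.6954 within the 13 libraries. Without the 2 farthest libraries r was −0.7167 and −0.6709.

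In Gm26917 and Gm26825 the levels fell into steps that cut across the groups. Gm26917 was at 490, 494, 334, 411 and 289 FPKM in WT03M replicates 1 to 5, at 438, 17.3, 6.24, 11 and 5.81 in TG03M, at 293, 511, 315, 345 and 3.81 in WT10M and at 6.3, 490, 554, 497 and 7.62 in TG10M. Its low libraries were the same 7 that were low in Hsp90aa1, with a mean of 8.3 FPKM against 420 in the 13 others. Gm26917 was the single member whose values in the 7 and the 13 libraries did not overlap, against 0.0879% of all tested transcripts. The 7 libraries include 4 of the 5 TG03M libraries, and the 3-month difference of −4.31 (SE 1.50, adjusted p = 0.593, limma) became 0.58 with a term for them. Gm26917 has been studied as a nuclear lncRNA and lies in the ribosomal RNA-like locus.

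Gm26825 stepped in another set of libraries. It was at or below 0.142 FPKM in WT03M replicate 3, TG03M replicates 1 and 4, WT10M replicates 4 and 5 and TG10M replicates 2 and 5, and at 15.84 to 34.89 in the 13 others. Of its 7 low libraries, 3 were also low in Hsp90aa1. Hspa8, whose mRNA it resembles, was at 895.2 to 1366 FPKM in the 7 libraries low in Gm26825 and at 677.8 to 1022 in the 13 others, so its values lay higher there but overlapped. The part of Hspa8 in the steps was not tested. Hspa8 was called in none of the comparisons.

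Yam1 was low and even in young wild-type cortex and high in aged PS19 cortex. It was at 80.5, 73.9, 60.9, 82.2 and 81.6 FPKM in WT03M, at 145, 744, 72.9, 802 and 625 in TG03M, at 64.3, 68.7, 96.9, 168 and 1066 in WT10M and at 796, 2061, 5484, 1572 and 1449 in TG10M. All TG10M libraries lay above 4 of the 5 WT10M libraries, and WT10M replicate 5 lay inside the TG10M range. Yam1, described as a regulator of muscle differentiation, lies opposite Gm42418, a ribosomal RNA-like gene, so its reads cannot be told apart from those of that gene. Lars2, a mitochondrial leucyl-tRNA synthetase gene named after its values were seen, was high in the same groups, at 7.692 to 9.872 FPKM in WT03M, 18.43 to 204.1 in TG03M, 6.614 to 91.23 in WT10M and 66.47 to 1840 in TG10M. Its own difference at 10 months was 4.64 (SE 0.84, adjusted p = 0.01178, limma). Over the 20 libraries the log2 levels of Yam1 and Lars2 had r = 0.9647 and rho = 0.9143. The r was 0.9473 without the 2 farthest libraries, 0.992 within the 13 and 0.9868 without the 3 set apart. No p-value is given for this relation, since Lars2 was picked after its values were seen. The mitochondrial transcript mt-Co1 was at 5998 to 6549 in WT03M, 8514 to 1.063e+04 in TG03M, 6379 to 1.304e+04 in WT10M and 8627 to 1.181e+04 in TG10M, so it was as high in TG03M as in TG10M. The part of either in the Yam1 result was not tested.

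**Figure D3:**
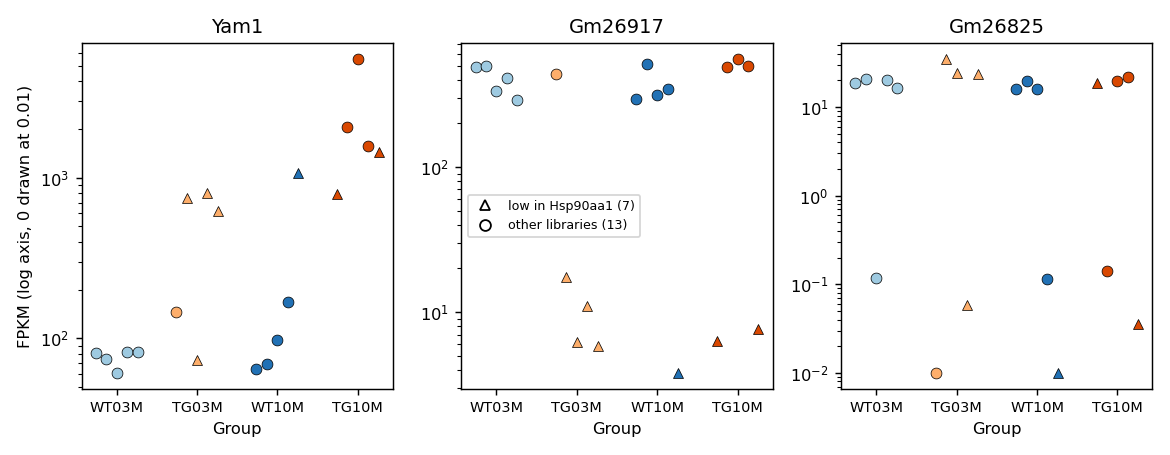
FPKM of Yam1, Gm26917 and Gm26825 in each library by group (log axis, 0 drawn at 0.01). Triangles mark the 7 libraries low in Hsp90aa1. Gm26917 is at 3.81 to 17.3 in the triangles and at 289 to 554 elsewhere, Gm26825 drops to at most 0.142 in another set, and Yam1 is at 796 or more in every TG10M library.

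At 10 months, Yam1 was the one member that differed between PS19 and wild-type cortex. The difference TG10M minus WT10M was 3.60 on the log2(FPKM + 0.1) scale (SE 0.73, adjusted p = 0.0468, limma with Benjamini-Hochberg adjustment over 3413 transcripts outside the mRNA table). Called members were 1 of 200, with 0.234% called over all tested, 0.176% in the higher direction. The call is close to the threshold. It was lost in 8 of the 10 fits that left out 1 library of these groups, all but those without WT10M replicate 5 or TG10M replicate 1 (difference 3.208 to 4.31, adjusted p = 0.001507 to 0.2014), with a term for the 7 libraries (3.43, adjusted p = 0.07979), with the replicate number as a block (adjusted p = 0.05743), and when the 2 groups were fitted alone (adjusted p = 0.2468). Without the 3 libraries set apart the difference was 4.82 (adjusted p = 0.003703), and among those 3 alone it was 0.01. In bulk tissue, fewer cells of a type and less RNA per cell cannot be told apart. Gfap, the reactive astrocyte marker, was at 84.8 to 182.4 FPKM in TG10M against 34.9 to 57.82 elsewhere, and its part in any difference was not tested.

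The other members with the smallest p at 10 months did not pass. Gm26870, which resembles satellite repeats, was at 2.74, 3.87, 3.11, 3.76 and 2.75 FPKM in WT10M and at 9.51, 7.82, 5.4, 6.03 and 4.63 in TG10M. The groups did not overlap, and the difference was 0.99 (SE 0.25, adjusted p = 0.282). A230006K03Rik (ENSMUST00000154958.1) was at 2.17 to 3.03 FPKM in WT10M and 1.06 to 1.99 in TG10M, with a difference of −0.78 (adjusted p = 0.306). Mir124-2hg (ENSMUST00000186746.1), host of the neuronal microRNA miR-124, was at 9.18, 8.85, 9.69, 11.3 and 9.8 FPKM in WT10M and at 7.26, 7.42, 6.71, 7.61 and 8.49 in TG10M, and the difference was −0.38 (SE 0.12, adjusted p = 0.468). The main 1700020I14Rik transcript (chr2:119594303-119607502, plus strand, 3 exons) was at 115, 110, 112, 125 and 94.7 FPKM in WT10M and at 84.9, 96, 98.9, 103 and 88.5 in TG10M, where the groups overlapped. Without the 3 libraries set apart, this transcript was at 110 to 125 in WT10M and at 96 to 103 in TG10M, without overlap. Its difference was −0.24 (SE 0.08, adjusted p = 0.468) at 10 months and −0.14 (adjusted p = 0.814) at 3 months. The 10-month value was −0.08974 with median centring and −0.04683 with quantile normalization.

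At an unadjusted p under 0.05, 28 members (14%) differed at 10 months against 8.73% of all tested. Of these, 5 were higher in TG10M (2.5%, against 1.26% of all tested) and 23 lower (11.5%, against 7.47%). This split depended on the scaling. The median difference of all tested transcripts was −0.14 as deposited and 0.00652 after median centring of each library. With centring 16 members were higher and 3 lower, and with quantile normalization 8 and 8. The median of the members was −0.0744, which is above that of all tested. No direction is therefore given for the members as a set.

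**Figure D4:**
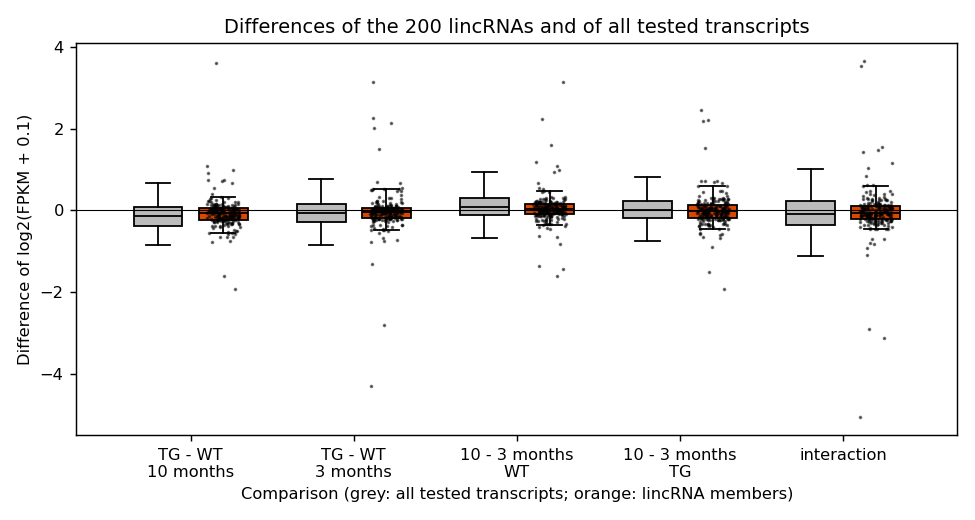
Differences on the log2(FPKM + 0.1) scale in the 5 comparisons for all 3413 tested transcripts (grey) and the 200 members (orange, with points); boxes show quartiles and whiskers the 5th to 95th percentiles. The medians of the members, from −0.0744 to 0.0279, lie close to 0 and to those of all tested, and Yam1 at 3.60 stands far above the box at 10 months.

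At 3 months no member was called, with 0.117% called over all tested, and the smallest adjusted p of a member was 0.449. Unadjusted, 18 members passed 0.05 (9%, against 6.30% of all tested). Of these, 4 were higher (2%, against 1.85%) and 14 lower (7%, against 4.45%), and with median centring 13 were higher and 3 lower. Snhg20 (ENSMUST00000149822.1) had the smallest p. It was at 28.8, 27.2, 37.4, 27.4 and 40.7 FPKM in WT03M and at 27.5, 20.1, 25.1, 20.2 and 22.3 in TG03M, and the difference was −0.48 (SE 0.14, adjusted p = 0.449). The longest C130071C03Rik transcript (ENSMUST00000131907.7, chr13:83721381-83741308, plus strand, 4 exons), host of the miR-9 sequences above, was at 26.6, 24.3, 24.1, 23.6 and 26.4 FPKM in WT03M and at 22.5, 21.9, 22.9, 22.3 and 17.9 in TG03M. The groups did not overlap and the difference was −0.22 (SE 0.07, adjusted p = 0.521), but the sum of all C130071C03Rik transcripts outside the mRNA table differed by 0.000616. Without the 3 libraries set apart, Gm26917 passed at 3 months (adjusted p = 0.03634), and with the term for the 7 libraries it did not.

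With age in wild-type cortex no member was called (0.117% of all tested, 0.0293% in the higher and 0.0879% in the lower direction), and 2 came close. A Lincpint transcript (ENSMUST00000185982.5, chr6:31166026-31218420, minus strand, 4 exons) had the smallest p. Lincpint is a p53-induced lincRNA that interacts with Polycomb complexes. This transcript was at 13, 12.6, 13.8, 11.7 and 10.2 FPKM in WT03M and at 17.9, 15.5, 14.4, 18.8 and 19.5 in WT10M, without overlap, and the difference was 0.48 (SE 0.10, adjusted p = 0.0613). In PS19 cortex it was at 10.9 to 13.8 FPKM in TG03M and 14.2 to 15.3 in TG10M, with a difference of 0.24 (adjusted p = 0.700), and the genotype by age interaction was −0.25 (adjusted p = 0.989). Its 3 other transcripts among the members differed by 0.19, 0.12 and 0.21 with age in wild-type cortex. Lincpint ENSMUST00000185982.5 passed with a pseudocount of 0.01 (adjusted p = 0.0412), at a mean of at least 0.5 FPKM (0.0291) and without WT03M replicate 3 (0.03687) or WT10M replicate 3 (0.02095).

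Gm17322 (chr9:57998041-58007451, plus strand, 2 exons) went the other way. It was at 4.9, 4.68, 4.72, 5.63 and 5.09 FPKM in WT03M and at 2.33, 3.44, 3.75, 4.28 and 2.35 in WT10M, without overlap, and the difference was −0.65 (SE 0.14, adjusted p = 0.0916). It passed with median centring (adjusted p = 0.01851), at a mean of at least 0.5 FPKM (0.04598) and without WT10M replicate 4 (0.01905). In PS19 cortex the difference with age was −0.17 (adjusted p = 0.906). The nearest protein-coding start is that of Cyp11a1, the cholesterol side-chain cleavage enzyme, 8370 bases away, whose difference was −0.55 (adjusted p = 0.5612). Gm1043 was at 6.91 to 17 FPKM in WT03M and 16.1 to 28.4 in WT10M, with a difference of 0.93 (adjusted p = 0.437). Unadjusted, 13 members passed 0.05 (6.5%, against 6.33% of all tested). Of these, 7 were higher (3.5%, against 4.37%) and 6 lower (3%, against 1.96%), and with median centring 4 were higher and 16 lower.

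With age in PS19 cortex no member was called, and none of all tested (0%). The smallest adjusted p of a member was 0.617, for Yam1 at 2.47. Unadjusted, 26 members passed 0.05 (13%, against 6.56% of all tested). Of these, 13 were higher (6.5%, against 3.66%) and 13 lower (6.5%, against 2.90%), and with median centring 7 were higher and 21 lower. Gm26694, opposite the neurotrophic factor gene Metrn, was at 11.3, 11.6, 10, 9.71 and 8.72 FPKM in TG03M and at 13.2, 12.6, 11, 13.7 and 12.9 in TG10M. It differed by 0.31 with age in PS19 cortex (adjusted p = 0.700). Gm26702 differed by −0.30, 2610035D17Rik by 0.67 and Gm26540 by −0.24, each at an adjusted p of 0.700.

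The genotype by age interaction, the difference between the genotype effects at 10 and at 3 months, was called for no member (0.0586% of all tested). Unadjusted, 10 members passed 0.05 (5%, against 4.01%). Of these, 7 were above 0 (against 1.64% of all tested) and 3 below (against 2.37%). 1810044D09Rik had a value of 1.42, Epb4.1l4aos of −2.91, Gm26694 of 0.39, Bvht of 1.04 and Gm17322 of 0.48, each at an adjusted p of 0.989. As a gene sum Epb4.1l4aos had a value of −0.3589. For Yam1 the interaction was 1.47 (adjusted p = 0.989), so its genotype difference was not shown to differ between the ages. At 3 months that difference was 2.13 (adjusted p = 0.557).

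**Figure D5:**
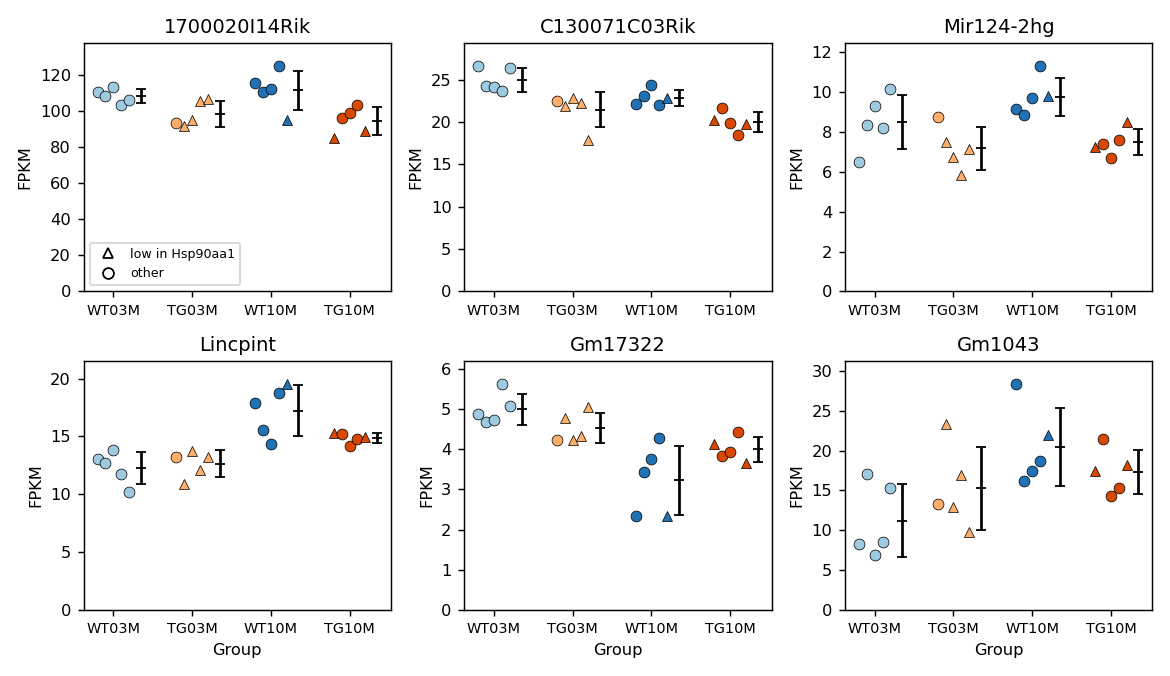
FPKM of 6 members in the 4 groups, 1 point per library with the mean and SD (n = 5). The Lincpint transcript is higher and Gm17322 lower in WT10M than in WT03M without overlap, the C130071C03Rik transcript is lower in TG03M than in WT03M, and the TG10M values of Mir124-2hg (6.71 to 8.49) lie below those of WT10M (8.85 to 11.3), while those of 1700020I14Rik overlap; no difference shown passed the test.

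By role, the host genes of snoRNAs had mostly negative genotype differences, none of which passed. Of 18 listed symbols, 5 were members, with 10 transcripts. Snhg6 overlaps Snord87, Snhg12 overlaps Snora16a, Snora44, Snora61 and Snord99, and Dancr overlaps Snora26. The differences were below 0 in 9 of 10 transcripts at 10 months (median −0.342, all tested −0.14) and in 9 of 10 at 3 months (median −0.248, all tested −0.0598), and none passed (smallest adjusted p = 0.5428 and 0.4493). With age in wild-type cortex 2 were above and 8 below 0 (median −0.192, all tested 0.0841), so the negative sign was not particular to the genotype. With age in PS19 cortex 5 were above and 5 below 0, and likewise for the interaction. For the genotype differences at 10 and 3 months, 8 and 9 of 10 were below 0 with median centring, and likewise 8 and 9 with quantile normalization. The genotype comparisons at the 2 ages share no libraries but were made in one fit with a shared spread, and the common sign was not tested. The main Snhg12 transcript (ENSMUST00000153474.7) was at 30, 32.6, 34.2, 35.1 and 28.1 FPKM in WT10M and at 25.3, 30.4, 25.3, 29.7 and 24.5 in TG10M, with a difference of −0.24 (adjusted p = 0.555). Dancr was at 2.27, 4.95, 4.1, 4.88 and 5.96 FPKM in WT03M and 1.98, 2.43, 2.22, 2.88 and 2.65 in TG03M, with a difference of −0.78 (SE 0.40, adjusted p = 0.802). The 10 transcripts share 5 loci and are not independent.

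MicroRNA hosts were represented by 5 of 16 listed symbols, C130071C03Rik, AI854517, Mir124a-1hg, Mir124-2hg and E530001K10Rik, with 13 transcripts. At 10 months 4 were above and 9 below 0 (median −0.133, close to the −0.14 of all tested), and with median centring 7 and 6, so the sign followed the scaling. At 3 months 7 were above and 6 below. None passed in any comparison. Further members overlapped Mir6516 (Snhg20), Mir325 (5330434G04Rik), Mir1839 (2900076A07Rik), Mir191 (4833445I07Rik), and Mir374b and Mir421 (Ftx). The levels of host transcripts say nothing of the mature microRNAs, which were not measured here.

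The studied regulators comprised 5 of 21 listed symbols with 9 transcripts, namely 1700020I14Rik, Lincpint, Tunar, Kantr and Gm26917. At 10 months 2 were above and 7 below 0 (median −0.2), with median centring 3 and 6, and none passed. Of 9 symbols tied to X inactivation or imprinting, Ftx, an activator of Xist, was the one member. It differed by −0.39 at 10 months (adjusted p = 0.555). Of 10 symbols resembling ribosomal RNA or satellite sequence, Yam1, Gm26917 and Gm26870 were members. At 10 months Yam1 was called higher (0.176% of all tested), a call lost in 13 of 23 alternatives, and neither of the other two was called. By sequence class, 1 of 31 members opposite another gene (Yam1) and 0 of 161 members of their own sequence were called at 10 months, against 0.234% of all tested. The median differences of these classes were −0.04071 and −0.09898.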

How the data were processed

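Total RNA of 20 cerebral cortex libraries (4 groups of 5) had been sequenced per the labels' protocols. The deposited tables hold FPKM per transcript, per the file headers, and no counts. The submitters' processing notes name GRCm38 (mm10), CASAVA, TopHat2, Cuffdiff and DESeq2, without versions or roles. How multi-mapping reads were counted is not given in the sources used here, and reads from a gene and its antisense partner cannot be told apart.

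The members and lists were chosen with earlier results of these data known. All 3413 transcripts outside the mRNA table with a mean of at least 0.1 FPKM were fitted as log2(FPKM + 0.1) with limma 3.58.1 (R 4.3.3), 4 groups in one fit, and p-values were Benjamini-Hochberg adjusted over all of them. A member was called at an adjusted p under 0.05. Fold changes on this scale understate the change of low transcripts. Partner genes were summed over transcripts and fitted as log2(FPKM + 0.5) over 13722 genes, adjusted separately. The fit was tested on simulated data. Depth was estimated from the steps of low values, of which 81.48% to 93.33% per library lay within 0.1 of a whole number of fragments. The members had a median of 169.9 estimated fragments per library, and 34 had under 50. Transcript structure came from GENCODE M21, and tables and plots were made with Python 3.11.15, pandas 2.3.3 and NumPy 2.4.6.

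Named members were the 10 highest, the called members and the 5 of smallest p in each comparison, the 10 of widest spread and those in a role list. The alternatives were other pseudocounts, filters and scalings, the compared groups alone, a replicate block, gene sums, all transcripts in one fit, and the leaving out of single libraries or of the 3 set apart. A term for the 7 libraries low in Hsp90aa1 and another reading of the selection were chosen after seeing the data. Correlation tests were not planned, since the plan held only a description of neighbouring genes. Replicates of a group correlated at 0.8008 to 0.8563 and shared no identical values. Results that rest on 2 partner genes are not reported here.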

Additional observations from a re-analysis of the deposited data

Results flagged for a closer look

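In 55 named members and 4 groups each, 17 of 220 sets of 5 libraries had a library whose distance to the nearest other exceeded the Dixon criterion at 95%, which chance exceeds in about 1 in 20 sets. Of the 17, 4 lay in WT10M replicate 5, 1 of the 3 libraries set apart. There Gm26723 was at 1357 FPKM (next 1106), Yam1 at 1066 (next 168) and Lincpint ENSMUST00000115107.6 at 3.41 (next 2.72), and Dancr was lowest at 0.98 (next 3.79).

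In the other libraries, 3 concerned Yam1, Gm26917 and Gm26825. Yam1 reached 5484 in TG10M replicate 3 (next 2061), Gm26917 was at 438 in TG03M replicate 1 (next 17.3), and Gm26825 was lowest at 0.119 in WT03M replicate 3 (next 16.4). Short members listed at 0 in the remaining libraries of the group gave 4: Gm34302 at 2.42 in TG03M replicate 1, Gm13322 at 3.03 in WT03M replicate 1, and Gm28563 at 18.7 in TG03M replicate 4 and at 26.4 in WT10M replicate 3. Gm26870 was at 9.11 in TG03M replicate 1 (next 3.96).

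Host genes gave the rest. Snhg6 ENSMUST00000182580.6 was lowest at 32.5 in TG03M replicate 2 (next 41.1), and C130071C03Rik ENSMUST00000131907.7 at 17.9 in TG03M replicate 5 (next 21.9). Snhg12 ENSMUST00000144705.6 was highest at 2.34 in TG10M replicate 1 (next 1.56), Mir124a-1hg ENSMUST00000180610.6 at 25.7 in TG03M replicate 5 (next 16.7) and Mir124-2hg ENSMUST00000188983.5 at 7.5 in WT10M replicate 1 (next 6.17).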

How the results depend on the processing

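The 1 called member at 10 months, Yam1, was not called (count 0) with a pseudocount of 0.01 (adjusted p = 0.0501, limma), the compared groups alone, all transcripts in one fit (0.06697) or the term for the 7 libraries, and the count ran from 0 to 1 over the fits without 1 library. With age in wild-type cortex the count of 0 became 1 with a pseudocount of 0.01 or median centring and 2 at a mean of at least 0.5 FPKM, and 0 to 1 without 1 library. At 3 months it became 1 without the 3 libraries set apart. The direction reversed for 3 values: C130071C03Rik at 3 months (0.000616 as a gene sum), Epb4.1l4aos with age in wild-type cortex (−0.05313 as a gene sum) and Gm26917 at 3 months (0.5788 with the term for the 7 libraries). Over 25 named differences, 596 of 620 alternatives kept direction and side of the threshold, 13 lost the call and 8 gained it; the causes were not tested. Same-numbered libraries shared only a number: 1 of 20 correlations of their deviations exceeded 0.1 and 3 of 20 were best with their own number. With the replicate block the 10-month count was 0 (Yam1 adjusted p = 0.05743). A sex term was not run, since Y-linked genes were found in all 20 libraries. Members with few fragments and those listed at 0 limit what can be detected.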
